A study of Homo sapiens with 12 samples.

Results

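The nuclear genes of the mitochondrial respiratory chain were examined in 2 human prostate cancer cell lines, LnCaP and 22RV1, with and without nicotine. A gene was taken as a member if its symbol begins with NDUFA, NDUFB, NDUFC, NDUFS, NDUFV, SDHA to SDHD, UQCR, COX4 to COX8 or ATP5, or is CYC1, and if it is not a pseudogene. By this rule 74 of the 11963 measured genes were members. They comprised 28 subunits of complex I, 3 of complex II, 7 of complex III, 13 of complex IV and 15 of complex V, together with 7 assembly factors whose symbols share a prefix (NDUFAF1, NDUFAF3, NDUFAF4, NDUFAF5, NDUFAF7, SDHAF1 and SDHAF3) and the inhibitor ATP5IF1. The rule used names, and levels only to pick the probe set of a gene.

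The respiratory chain passes electrons from NADH (complex I) and succinate (complex II) through ubiquinone to complex III, cytochrome c and complex IV, which reduces oxygen. Complexes I, III and IV pump protons, and complex V, the ATP synthase, uses the proton gradient to make ATP. Most subunits are encoded in the nucleus, while several core subunits of complexes I, III, IV and V are encoded in mitochondrial DNA. Mitochondrially encoded genes are not analysed here.

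The samples were LnCaP cells after 24 h in 100 µM nicotine, given as the tartrate salt, untreated LnCaP cells, 22RV1 cells under the same nicotine treatment, and untreated 22RV1 cells. Each of these 4 groups held 3 arrays, 12 in all. The labels name neither a vehicle nor a time in culture for the untreated cells, and each line is a single established line, so a difference between them is a difference between these 2 lines. Nothing in the labels says that replicates came from separate cultures, so a p-value measures only how far these arrays scatter, and that scatter may be technical.

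The values are log2 expression levels on single-colour Affymetrix arrays, as the authors deposited them. A gene was read at the probe set with the highest mean. Array medians differed by at most 0.0955. The 4 arrays with the replicate number 3 held 48.05% of the residual sum of squares over all genes and 48.51% over the members, and results are given without these arrays where they rest on them. Differences between 3' and 5' control probe sets of GAPDH and ACTB lay between -0.137 and 0.0984 in every array. Of the 11 prostate epithelial markers, 8 were measured and all 8 were among the 25% of genes with the highest levels, averaged over all arrays. Ranks within a group are not given. In 22RV1 the lowest of these markers was FOLH1 in untreated arrays, at 8.38, and KLK3 in nicotine arrays, at 8.58. Of the leukocyte markers 4 were measured. By the average over all arrays, 3 of them were among the 25% with the lowest levels, as were 3 of the 6 stromal and endothelial markers. Of these, the endothelial gene VWF was higher in LnCaP, by 3.23 on the log2 scale in the untreated arrays (adjusted p = 5.76e-09, limma), the stromal gene DCN was lower (-0.43, adjusted p = 0.00176, limma), and the other 4 were not called.

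Levels of the members ranged from 4.49 to 13.11 on the log2 scale, averaged over the 12 arrays. Probe sets bind with different strength, so these levels give no order among genes. Only COX6A2, COX7A1, NDUFAF5 and NDUFAF7 lay below 5.23, the level under which 25% of all genes lay. COX6A2 and COX7A1 are the isoforms of complex IV known from heart and skeletal muscle. The broadly expressed COX6A1 and COX7A2 averaged 13.00 and 11.93, on other probe sets, so the isoforms cannot be ranked by these levels. The deposited table holds no detection calls, so a low level is not a statement on presence.

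The first question was whether nicotine changed respiratory chain expression within a line. A gene was called when its Benjamini-Hochberg adjusted p from limma, over all 11963 genes, was under 0.05. The model held no term for the replicate number unless a block is named. No member was called in either line. In LnCaP 0 of 74 members were called, where 0.694% of all genes were, and 3 members had an unadjusted p under 0.05, where 12.2% of all genes did. In 22RV1 0 of 74 members were called, where 0% of all genes were, and 10 members had an unadjusted p under 0.05, where 5.29% of all genes did. All 10 had fold changes below 0. With the replicate number as a block, 5.39% of all genes were called in LnCaP and still 0 members. The arrays measure RNA of a whole culture, so fewer expressing cells and less RNA per cell cannot be told apart.

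Below the threshold, the members' differences lay mostly on the negative side in 22RV1. The log2 fold change (nicotine minus untreated) was below 0 for 67 of 74 members in 22RV1, where it was below 0 for 52.3% of all genes, and for 50 of 74 members in LnCaP, where it was below 0 for 50.4%. The median over members was -0.096 in 22RV1 against -0.007 over all genes, and -0.046 in LnCaP against -0.001 over all genes. The median standard error of a single member's difference within a line was 0.0845. The 22RV1 median depended on 1 array: it was -0.0435 without untreated replicate 3 and lay between -0.080 and -0.120 when another 22RV1 array was left out. Without the 4 arrays numbered 3 it was -0.0707, and the LnCaP median was -0.0442.

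The complexes were alike in sign in 22RV1. The fold change was below 0 for 27 of 28 complex I subunits (median log2 fold change -0.12), 3 of 3 of complex II (-0.12), 6 of 7 of complex III (-0.09), 11 of 13 of complex IV (-0.09) and 14 of 15 of complex V (-0.08). In LnCaP the fold change was below 0 for 17 of 28 complex I subunits (-0.05), 2 of 3 of complex II (-0.03), 5 of 7 of complex III (-0.05), 8 of 13 of complex IV (-0.00) and 12 of 15 of complex V (-0.05). Among the assembly factors it was below 0 for 6 of 7 in LnCaP and for 5 of 7 in 22RV1. None of these differences passed the test for a single gene.

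**Figure D1:**
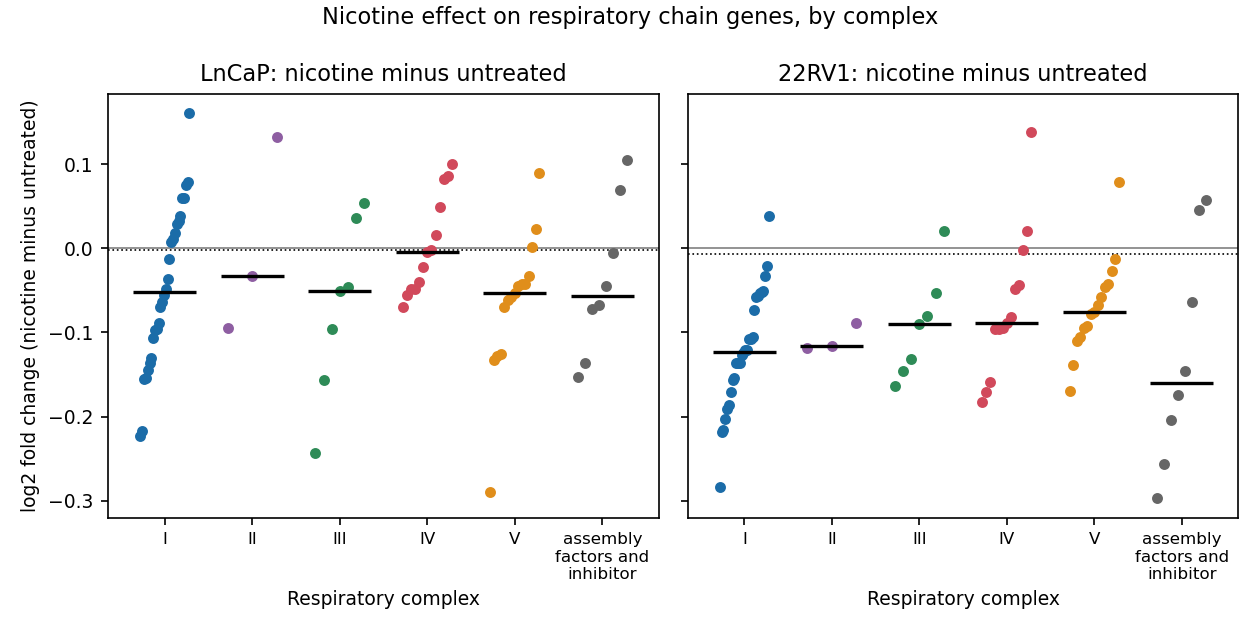
Each point is the log2 fold change (nicotine minus untreated, y axis) of 1 respiratory chain gene, grouped by complex along the x axis, in LnCaP at the left and 22RV1 at the right. Black bars are medians of a complex and the dotted line is the median of all 11963 genes. In 22RV1 the points of every complex lie mostly below 0 (67 of 74), while in LnCaP they spread around a median of -0.046.

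Averaged over the members, the nicotine and untreated arrays overlapped in both lines. The mean over the 74 members, set against the mean of the untreated arrays of the line, was -0.134, -0.115 and -0.0471 in the 3 nicotine arrays of 22RV1, and -0.0549, -0.0399 and 0.0947 in its untreated arrays. The nicotine array numbered 3 thus lay inside the range of the untreated arrays, and the untreated array numbered 3 was the highest of the line. In LnCaP the same mean was -0.0522, -0.0663 and -0.00251 in nicotine arrays, and -0.0479, 0.0186 and 0.0294 in untreated arrays.

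By complex, the array means of 22RV1 did not overlap for complex II, which had -0.133, -0.126 and -0.0646 in nicotine arrays and -0.00219, -0.0416 and 0.0438 in untreated arrays. They did not overlap for complex III either, with -0.114, -0.105 and -0.0581 in nicotine arrays and -0.0490, -0.0165 and 0.0655 in untreated arrays. They overlapped for complexes I, IV and V. With 3 arrays against 3, an order of this kind carries no adjusted p and was not tested.

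**Figure D2:**
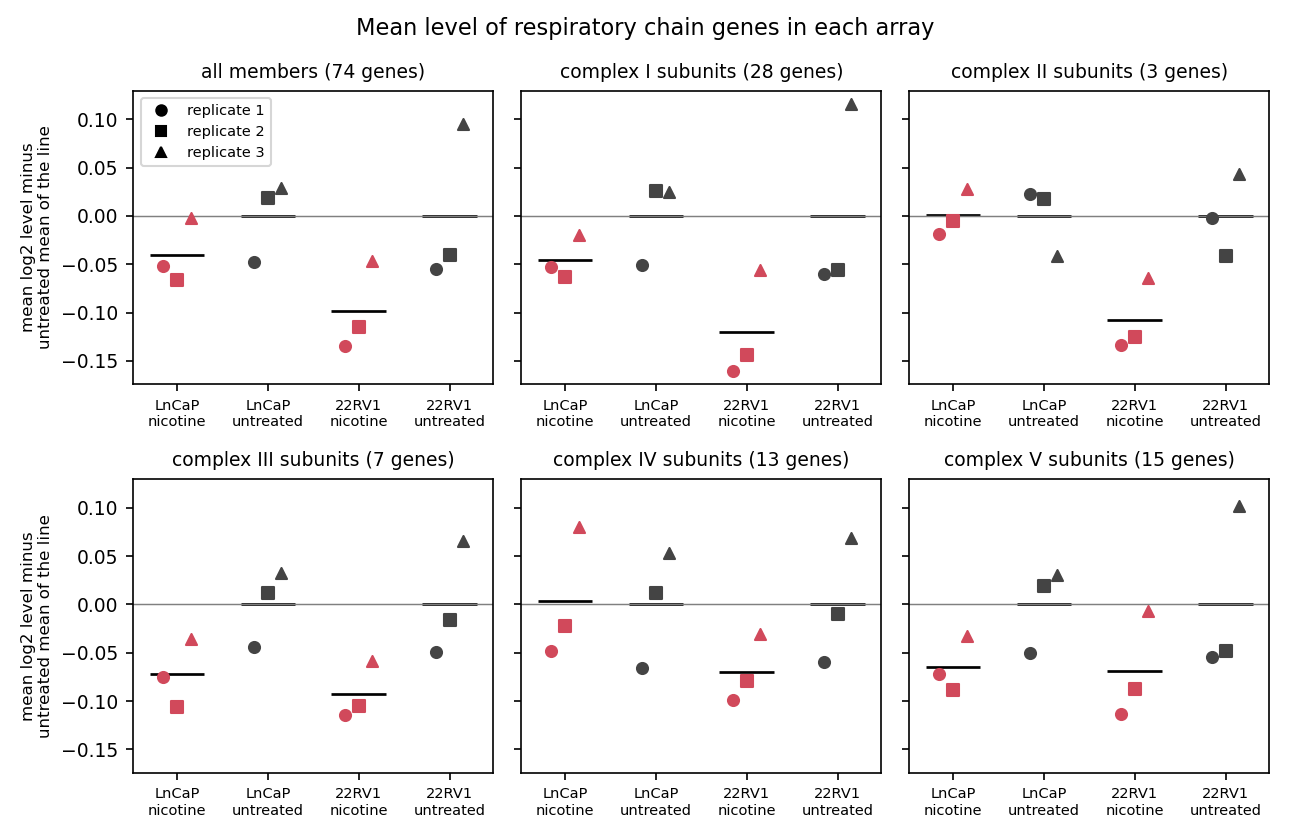
Each point is 1 array: the mean log2 level over the genes named in the panel title minus the mean of the untreated arrays of the same line (y axis), for the 4 groups (x axis). Symbols give the replicate number, red marks nicotine, grey marks untreated, and bars are group means. The untreated 22RV1 array numbered 3 lies highest over all members, at 0.0947, and nicotine arrays numbered 3 lie highest in their groups.

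Paired by replicate number, the median nicotine minus untreated difference over the members was -0.0845, -0.0659 and -0.144 in 22RV1 for numbers 1, 2 and 3, with 66, 63 and 64 of the 74 members below 0. In LnCaP it was -0.0112, -0.0758 and -0.0308, with 40, 59 and 46 of 74 below 0. The sign of the median was thus negative in all 6 pairs, at sizes between -0.0112 and -0.144. For 560 genes outside the list with a mean level of at least 11, where most members lie, the pair medians in LnCaP were 0.00405, -0.0345 and -0.00690, and those in 22RV1 were -0.0119, -0.0119 and -0.0226.

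Proliferation markers and mitochondrial ribosome genes were read beside the members. All 20 proliferation markers had fold changes below 0 in both lines, with a median of -0.66 in LnCaP, where 6 fell (MKI67, CCNA2, BIRC5, TPX2, KIF11 and TYMS) and 18 did with the replicate block, and a median of -0.22 in 22RV1, where 0 were called and 6 had an unadjusted p under 0.05. Their pair medians in 22RV1 were -0.193, -0.0719 and -0.435, so pair 3 was the lowest for these genes and for the respiratory chain genes. Of 48 mitochondrial ribosome genes, 43 were below 0 in LnCaP (median -0.16) and 40 in 22RV1 (median -0.12). Of these genes 0 were called in either line, against 2 in LnCaP with the replicate block (MRPS12 and MRPS17). In LnCaP 0.694% of all genes were called, and 5.39% with the block. The part of proliferation in the respiratory chain values was not tested.

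Individual members showed the following values after nicotine. NDUFA7, an accessory subunit of complex I, had 10.15, 10.01 and 10.14 in nicotine arrays of 22RV1, against 10.35, 10.28 and 10.54 in untreated arrays. Every nicotine array lay below every untreated array, and the difference of -0.28 ± 0.08 (SE, n = 3 per group) had the smallest p of the members in this line but did not pass (limma adjusted p = 0.88). Such separation, with all 3 nicotine arrays below all 3 untreated arrays, occurred for 21 of 74 members in 22RV1, where it occurred for 6.47% of all genes. The opposite order occurred for 1 member, COX6A2, and for 5.42% of all genes.

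NDUFB8, an accessory subunit in the membrane arm of complex I, had 11.49, 11.45 and 11.60 in nicotine arrays of 22RV1 and 11.63, 11.71 and 11.86 in untreated arrays. The difference was -0.22 ± 0.09 (limma adjusted p = 0.90), the groups did not overlap, and another, dimmer probe set of the gene gave 0.24. ATP5IF1, which inhibits the ATP synthase when the proton gradient collapses, had 10.02, 10.05 and 10.33 in nicotine arrays and 10.36, 10.29 and 10.51 in untreated arrays of 22RV1. Its groups overlapped, with a difference of -0.26 ± 0.10 (limma adjusted p = 0.90).

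The members with the smallest p in the other complexes of 22RV1 were likewise below the threshold. In complex II the assembly factor SDHAF3 had a log2 fold change of -0.30 and the flavoprotein subunit SDHA one of -0.12. In complex III CYC1 had -0.16 and UQCRQ -0.15. In complex IV COX5B had -0.17 and COX7A2 -0.16, and in complex V ATP5ME had -0.14 beside ATP5IF1. Adjusted p for these 7 genes lay between 0.90 and 0.98 (limma).

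In LnCaP the smallest p belonged to CYC1, cytochrome c1, the haem protein of complex III that hands electrons to cytochrome c. It had 11.34, 11.35 and 11.37 in nicotine arrays, against 11.54, 11.61 and 11.64 in untreated arrays. The groups did not overlap, and the difference of -0.24 ± 0.07 (SE, n = 3 per group) had an adjusted p of 0.12 (limma). In 22RV1 CYC1 had 11.69, 11.75 and 11.75 in nicotine arrays and 11.87, 11.86 and 11.95 in untreated arrays, again without overlap (-0.16 ± 0.07, limma adjusted p = 0.90). Averaged over the lines, the difference was -0.20 ± 0.05 (limma adjusted p = 0.0993). With a variance trend on mean expression it passed, with adjusted p of 0.0404 in LnCaP and 0.0294 for the average, as the only member called.

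ATP5MC1 encodes subunit c, which forms the proton-driven ring of the ATP synthase. It had 10.66, 10.65 and 10.45 in nicotine arrays of LnCaP and 10.90, 10.81 and 10.92 in untreated arrays, without overlap, but the difference of -0.29 ± 0.09 did not pass (limma adjusted p = 0.19). ATP5MC2 and ATP5MC3, which encode the same mature protein from other loci, had log2 fold changes of 0.02 and -0.13 in LnCaP. All 3 nicotine arrays lay below all 3 untreated arrays for 10 of 74 members in LnCaP, where this occurred for 10.1% of all genes, and above them for 0 members, where this occurred for 7.10%.

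The remaining LnCaP values were smaller. In complex I NDUFA6 and NDUFA9 each had a log2 fold change of -0.22 (adjusted p = 0.37 and 0.45, limma). In complex II the membrane anchors SDHC and SDHD had 0.13 and -0.10, in complex III UQCR10 had -0.16, and in complex V ATP5ME had -0.13. In complex IV the smallest p belonged to COX6C and COX7A2, at 0.10 and 0.09, on the positive side (adjusted p = 0.71 and 0.79, limma).

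Averaging the effects of nicotine over the lines called 0 members, where 0.376% of all genes were called (3.31% with the replicate block, still 0 members), and 10 members had an unadjusted p under 0.05, where 11.6% of all genes did. The median was -0.068, and 65 of 74 members were below 0, where 51.5% of all genes were. Beside CYC1 and ATP5MC1 (-0.23), the values with the smallest p were NDUFA7 (-0.19) and NDUFS7 (-0.16) in complex I, SDHAF3 (-0.18) and SDHA (-0.07) in complex II, UQCR10 (-0.12) in complex III, COX5B (-0.09) and COX5A (-0.08) in complex IV and ATP5ME (-0.13) in complex V. None passed the test.

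The difference between the lines in their response was tested as an interaction (LnCaP effect minus 22RV1 effect). It called 0 members, where 0% of all genes were called, and 2 members had an unadjusted p under 0.05, where 6.26% of all genes did. These were ATP5IF1, at 0.33 ± 0.14 (limma adjusted p = 0.78), and COX7A2, at 0.25 ± 0.11 (limma adjusted p = 0.79). The median over members was 0.038, with 21 of 74 below 0, where 49.9% of all genes were. In complexes I, II and III the smallest p belonged to NDUFA13 (0.23) and NDUFA5 (0.35), SDHC (0.22) and SDHAF3 (0.23), and UQCR11 (0.13) and CYC1 (-0.08). After COX7A2 in complex IV came COX5B (0.17), and after ATP5IF1 in complex V came ATP5MC1 (-0.12). None of them was called. With the replicate block, 0.159% of all genes and 0 members were called.

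The second question was how the lines differ in respiratory chain expression. Between the lines, members were called in both directions within every complex of more than 3 measured subunits. In untreated arrays 35 of 74 members were called, which is near the share of all genes, 47.8%. Of these, 17 were higher in LnCaP, where 25.4% of all genes were, and 18 were lower, where 22.4% were. In nicotine arrays 40 of 74 were called, where 49.9% of all genes were, with 26 higher in LnCaP (26.2% of all genes) and 14 lower (23.7%). With each array shifted to an equal median the split was 23 higher and 15 lower in untreated arrays, and 32 higher and 9 lower in nicotine arrays.

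Both line comparisons use separate arrays. Of the members called in untreated arrays 85.7% were also called in nicotine arrays, and of those called in nicotine arrays 75% were called in untreated arrays, against 87.6% and 83.9% over all genes. In the same direction 30 members were called in both, 17 higher and 13 lower in LnCaP, and 0 were called in opposite directions. Another 29 members were called in neither. A log2 difference beyond 0.5 in either direction occurred for 13.5% of members and 32.5% of all genes in untreated arrays, and for 16.2% and 34.2% in nicotine arrays. The median size of the difference was 0.21 over members and 0.27 over all genes in untreated arrays, and 0.23 and 0.29 in nicotine arrays.

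**Figure D3:**
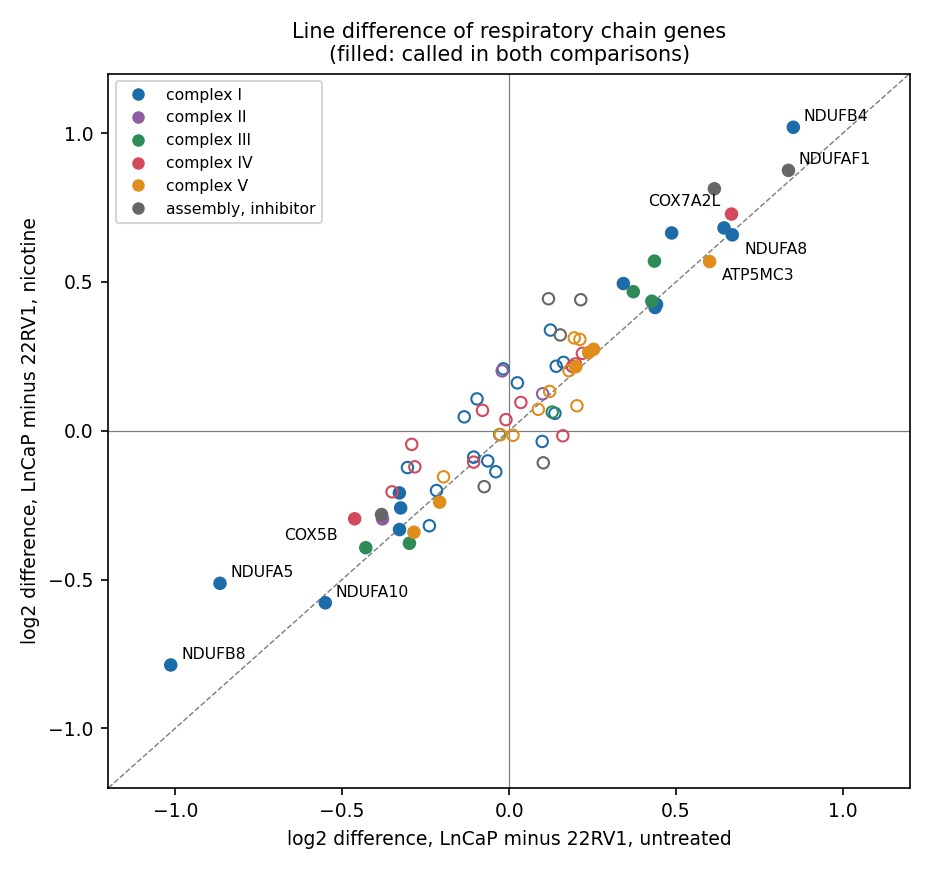
Each point is 1 respiratory chain gene, with its log2 difference (LnCaP minus 22RV1) in untreated arrays on the x axis and in nicotine arrays on the y axis, coloured by complex. Filled points were called in both comparisons (30 genes), and the dashed line marks equal differences. NDUFB4 lies at 0.85 and 1.02, and NDUFB8 at -1.01 and -0.79.

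Complex I held the largest differences in both directions. NDUFB4, an accessory subunit in the membrane arm, had 13.06, 13.34 and 13.17 in untreated LnCaP arrays, against 12.32, 12.28 and 12.42 in untreated 22RV1 arrays. In nicotine arrays it had 13.15, 13.28 and 13.32 in LnCaP and 12.12, 12.25 and 12.33 in 22RV1. All LnCaP arrays lay above all 22RV1 arrays. The difference was 0.85 ± 0.09 in untreated arrays (limma adjusted p = 9.77e-06) and 1.02 ± 0.09 in nicotine arrays (limma adjusted p = 1.92e-06).

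NDUFB8 had the opposite order, with 10.58, 10.75 and 10.82 in untreated LnCaP arrays and 11.63, 11.71 and 11.86 in untreated 22RV1 arrays. The highest LnCaP array lay 0.81 below the lowest 22RV1 array, and the difference was -1.01 ± 0.09 (limma adjusted p = 1.50e-06). In nicotine arrays NDUFB8 had 10.70, 10.69 and 10.79 in LnCaP and 11.49, 11.45 and 11.60 in 22RV1, a difference of -0.79 ± 0.09 (limma adjusted p = 1.17e-05). Its 2 other probe sets gave -0.99 and -1.01 in untreated arrays.

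NDUFA5, an accessory subunit of the matrix arm, had 9.46, 9.41 and 9.02 in untreated LnCaP arrays and 10.16, 10.13 and 10.19 in untreated 22RV1 arrays. The difference was -0.87 ± 0.13 in untreated arrays (limma adjusted p = 0.000124) and -0.51 ± 0.13 in nicotine arrays (limma adjusted p = 0.0050). LnCaP arrays of this gene were spread over more than 0.4, more widely than those of 22RV1. NDUFA10 had 10.48, 10.65 and 10.71 in untreated LnCaP arrays and 11.21, 11.22 and 11.06 in untreated 22RV1 arrays, and was lower in LnCaP, with log2 differences of -0.55 in untreated and -0.58 in nicotine arrays.

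Higher in LnCaP beside NDUFB4 was NDUFA8, an accessory subunit facing the intermembrane space, with 10.76, 10.81 and 10.72 in untreated LnCaP arrays and 10.03, 10.11 and 10.15 in untreated 22RV1 arrays. The log2 difference was 0.67 in untreated and 0.66 in nicotine arrays. NDUFV2, a core subunit that carries an iron-sulfur cluster, had 11.72, 11.85 and 12.08 in untreated LnCaP arrays and 11.19, 11.12 and 11.41 in untreated 22RV1 arrays, with a difference of 0.64 ± 0.11 (limma adjusted p = 0.000491). Its array numbered 3 was the highest of each group, and the lines still did not overlap. NDUFA7 was also higher in LnCaP, by 0.49 in untreated and 0.66 in nicotine arrays.

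In all, 7 of 28 complex I subunits were higher and 7 lower in LnCaP in untreated arrays, and 10 were higher and 7 lower in nicotine arrays. The untreated counts are near the shares of all genes, 25.4% higher and 22.4% lower, and in nicotine arrays those shares were 26.2% and 23.7%. The core subunits differed among themselves. NDUFV1, which binds NADH and is the partner of NDUFV2, was lower in untreated LnCaP arrays (-0.30, limma adjusted p = 0.00405), and in nicotine arrays its difference of -0.12 did not pass. NDUFS1, the iron-sulfur subunit of the same module, had -0.10 and 0.11, neither called. NDUFA13 was the member just inside the threshold in nicotine arrays, at 0.21 (limma adjusted p = 0.044), and its call was lost in 8 of the 12 fits with 1 array left out.

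Assembly factors of complex I, which are not part of the finished enzyme, were called in both directions. NDUFAF1 had 9.42, 9.51 and 9.70 in untreated LnCaP arrays and 8.68, 8.56 and 8.87 in untreated 22RV1 arrays, a difference of 0.84 ± 0.10 (limma adjusted p = 2.94e-05). NDUFAF3 had 10.82, 10.93 and 10.92 in untreated LnCaP arrays and 10.29, 10.21 and 10.33 in untreated 22RV1 arrays, a difference of 0.61 ± 0.08 (limma adjusted p = 6.61e-05). Both were higher in every LnCaP array. NDUFAF5 was lower in LnCaP, with log2 differences of -0.38 in untreated and -0.28 in nicotine arrays, at levels among the lowest 25% of all genes.

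In complex II the flavoprotein subunit SDHA, which oxidises succinate, had 9.93, 10.01 and 9.90 in untreated LnCaP arrays and 10.34, 10.28 and 10.36 in untreated 22RV1 arrays. It was lower in LnCaP, with a log2 difference of -0.38 ± 0.08 (limma adjusted p = 0.00113) in untreated arrays and of -0.30 ± 0.08 (limma adjusted p = 0.0055) in nicotine arrays. The membrane anchor SDHC lay just outside the threshold in nicotine arrays, at 0.20 (limma adjusted p = 0.053). SDHD and SDHAF3 were not called in untreated arrays, and SDHAF3 was called higher in LnCaP in nicotine arrays (0.44, limma adjusted p = 0.0097). SDHB is not analysed here.

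Complex III was split between its core proteins. UQCRC1 had 11.28, 11.43 and 11.57 in untreated LnCaP arrays and 11.66, 11.93 and 11.98 in untreated 22RV1 arrays, whereas UQCRC2 had 11.41, 11.45 and 11.47 in untreated LnCaP arrays and values between 10.97 and 11.07 in untreated 22RV1 arrays. UQCRC1 was lower in LnCaP (-0.43 ± 0.10, limma adjusted p = 0.00434) and UQCRC2 higher (0.43 ± 0.07, limma adjusted p = 0.000332), with no overlap of the lines for either gene. The nicotine arrays gave -0.39 and 0.44.

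CYC1 was lower in LnCaP, with a log2 difference of -0.30 ± 0.07 in untreated arrays (limma adjusted p = 0.00239) and of -0.38 ± 0.07 in nicotine arrays (limma adjusted p = 0.000401). The small subunit UQCR11 had 12.09, 12.16 and 12.09 in untreated LnCaP arrays and 11.57, 11.70 and 11.76 in untreated 22RV1 arrays, a difference of 0.44 in untreated and 0.57 in nicotine arrays. UQCRQ was higher in LnCaP by 0.37 and 0.47. The other 2 measured subunits, UQCR10 and UQCRB, were called in neither comparison.

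In complex IV, with 13 measured subunits, 1 was higher and 4 were lower in LnCaP in untreated arrays, and 2 were higher and 1 lower in nicotine arrays. The shares of all genes were 25.4% higher and 22.4% lower in untreated arrays, and 26.2% and 23.7% in nicotine arrays. No difference of the complex from these shares was tested. COX7A2L, known for joining complexes III and IV in supercomplexes, had 10.45, 10.50 and 10.62 in untreated LnCaP arrays and 9.88, 9.85 and 9.85 in untreated 22RV1 arrays. It was higher in LnCaP by 0.67 ± 0.08 (limma adjusted p = 1.55e-05) in untreated arrays and by 0.73 ± 0.08 (limma adjusted p = 6.68e-06) in nicotine arrays, and no LnCaP array came within 0.5 of a 22RV1 array.

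COX5B, a zinc-binding subunit, had 11.95, 11.98 and 11.94 in untreated LnCaP arrays and 12.32, 12.44 and 12.51 in untreated 22RV1 arrays, and was lower in LnCaP (-0.46 ± 0.07, limma adjusted p = 0.000176). In nicotine arrays the difference was -0.30 ± 0.07 (limma adjusted p = 0.0041). Its dimmest probe set gave -0.27 and 0.04, neither called, while the others gave values close to the chosen one. COX6A1 (-0.35), COX7A2 (-0.29) and COX8A (-0.28) were called lower in untreated LnCaP arrays, and in nicotine arrays their differences of -0.21, -0.05 and -0.12 were not called. The call of COX8A was lost without untreated replicate 3 of 22RV1, untreated replicate 1 of LnCaP or untreated replicate 2 of LnCaP.

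Without a block for the replicate number, the muscle isoforms of complex IV were not called between the lines. COX6A2 had log2 differences of 0.16 and -0.02, and COX7A1 of 0.22 and 0.26. COX6B1 had 0.19 and 0.22 and was not called either. With the replicate number as a block across both lines, COX7A1 was called in nicotine arrays (limma adjusted p = 0.0271), and COX6B1 in untreated (limma adjusted p = 0.0230) and nicotine arrays (limma adjusted p = 0.0117). COX4I1, the largest nuclear subunit, had -0.11 in both comparisons at its chosen probe set, but another probe set of lower level gave -0.56 in untreated and -0.92 in nicotine arrays, so the probe sets disagree in size. COX4I2 and COX6B2 are not analysed here.

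COXFA4 and COXFA4L2 carry the older names NDUFA4 and NDUFA4L2 and fall outside the rule under their present symbols. COXFA4, now counted with complex IV, had 12.21, 12.29 and 12.39 in untreated LnCaP arrays and 12.52, 12.52 and 12.59 in untreated 22RV1 arrays (-0.25, limma adjusted p = 0.034), a call that was lost when any 1 of these 6 arrays but LnCaP replicate 3 was left out. COXFA4L2 had 6.82, 7.45 and 6.35 in untreated LnCaP arrays and 6.89, 6.58 and 6.68 in untreated 22RV1 arrays. In these arrays the lines overlapped, and the difference of 0.16 was not called. In nicotine arrays COXFA4L2 had 8.08, 8.01 and 7.18 in LnCaP and 7.0, 6.53 and 6.80 in 22RV1, without overlap, and was higher in LnCaP by 0.98 ± 0.28 (limma adjusted p = 0.0099). COXFA4 had -0.10 in nicotine arrays and was not called.

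In complex V the genes of the c ring differed from each other. ATP5MC3 had 11.84, 11.97 and 11.94 in untreated LnCaP arrays and 11.26, 11.26 and 11.43 in untreated 22RV1 arrays, and was higher in LnCaP by 0.60 ± 0.08 (limma adjusted p = 4.28e-05). ATP5MC2 had 11.89, 11.99 and 11.99 in untreated LnCaP arrays and 12.25, 12.18 and 12.30 in untreated 22RV1 arrays, and was lower in LnCaP (-0.28 ± 0.07, limma adjusted p = 0.0051). ATP5MC1, at 0.20, was not called. A second probe set of ATP5MC2, at a mean level of 3.97, gave 0.19 and was not called. The nicotine arrays gave 0.57 for ATP5MC3, -0.34 for ATP5MC2 and 0.08 for ATP5MC1.

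The catalytic head of complex V showed small differences. ATP5F1B, the beta subunit, was lower in untreated LnCaP arrays (-0.20 ± 0.07, limma adjusted p = 0.027), and this call was lost without LnCaP replicate 1 or any 1 of the 3 untreated 22RV1 arrays. ATP5F1A, the alpha subunit, had 0.12 and was not called. In nicotine arrays ATP5F1B had -0.15 (limma adjusted p = 0.069) and ATP5F1A 0.13 (limma adjusted p = 0.12), neither called. In the peripheral stalk ATP5PO, at -0.21 (limma adjusted p = 0.042), was the member just inside the threshold in untreated arrays, and its call was lost in 9 of the 12 fits with 1 array left out. ATP5PB, at 0.21 (limma adjusted p = 0.059), was the member just outside. ATP5IF1 was called only in nicotine arrays (0.44, limma adjusted p = 0.0027), and its untreated difference of 0.12 was not.

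With the replicate number as a block, 6 further members were called in each line comparison, 41 in untreated arrays (52.6% of all genes) and 46 in nicotine arrays (54.7% of all genes). In untreated arrays these were ATP5F1C, ATP5PB, COX5A and COX6B1, higher in LnCaP by 0.18 to 0.21, and NDUFA9 (-0.24) and NDUFS7 (-0.22), with blocked adjusted p between 0.014 and 0.030 (limma). In nicotine arrays they were ATP5F1C (0.20), COX6B1 (0.22), COX7A1 (0.26) and SDHC (0.20), and COX6A1 (-0.21) and NDUFS7 (-0.20), with blocked adjusted p between 0.012 and 0.049 (limma).

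**Figure D4:**
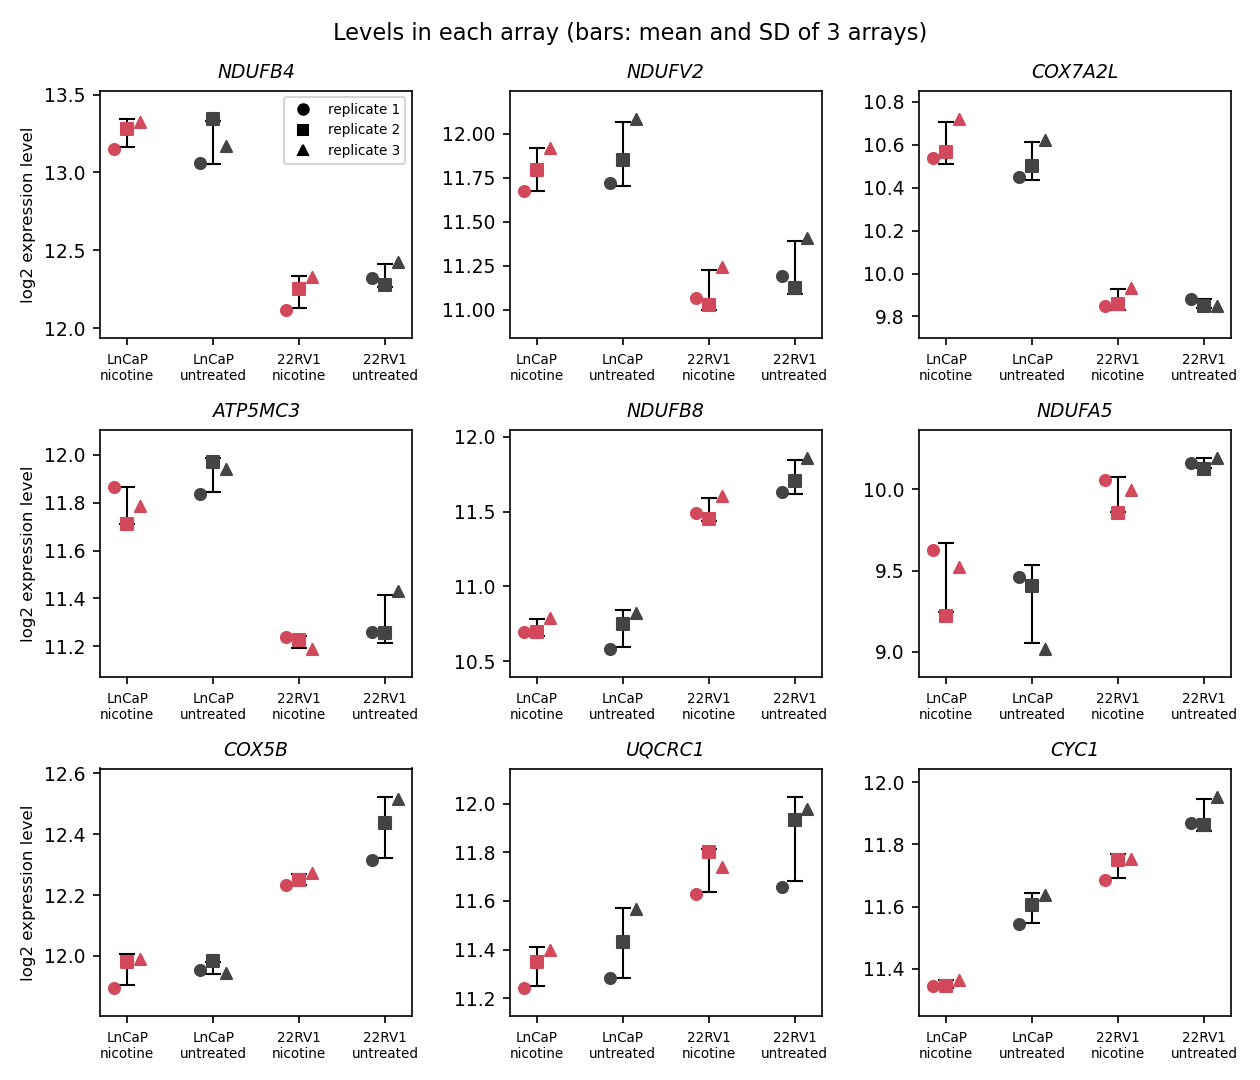
Log2 expression level (y axis) of 9 respiratory chain genes in each array, for the 4 groups (x axis). Points are arrays, with symbols for the replicate number, red for nicotine and grey for untreated, and bars give the mean and SD of 3 arrays. For NDUFB4, NDUFV2, COX7A2L and ATP5MC3 the LnCaP arrays lie above the 22RV1 arrays, and for the other 5 genes below them.

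The promoters of 4 members called in both line comparisons are shown: NDUFB4 and NDUFB8, with the largest differences up and down, and UQCR11 and COX5B, which hold a motif of an ETS factor. Each sequence is the 250 bases before the annotated transcript start, on the gene's strand, from RefSeq (GRCh38.p14). Capitals mark matches to the motif of nuclear respiratory factor 1 (NRF1), GCGCA followed by any base and GCGC, and to an ETS motif bound by GABPA, CCGGAAG, on either strand. The windows are chr3:120596086-120596335 (plus strand) for NDUFB4, chr19:1605463-1605712 (minus) for UQCR11, chr10:100529924-100530173 (minus) for NDUFB8 and chr2:97645812-97646061 (plus) for COX5B.
NDUFB4: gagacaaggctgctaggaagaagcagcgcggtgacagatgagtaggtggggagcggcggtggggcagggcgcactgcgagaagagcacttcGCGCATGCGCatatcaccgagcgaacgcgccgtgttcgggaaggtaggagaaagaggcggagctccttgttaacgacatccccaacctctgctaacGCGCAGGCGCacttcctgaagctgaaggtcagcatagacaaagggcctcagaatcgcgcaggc
UQCR11: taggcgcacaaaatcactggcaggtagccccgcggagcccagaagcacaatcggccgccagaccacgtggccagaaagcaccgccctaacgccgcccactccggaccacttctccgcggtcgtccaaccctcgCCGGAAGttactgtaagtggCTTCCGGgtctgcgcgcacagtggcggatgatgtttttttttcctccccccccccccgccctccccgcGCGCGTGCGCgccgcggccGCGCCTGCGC
NDUFB8: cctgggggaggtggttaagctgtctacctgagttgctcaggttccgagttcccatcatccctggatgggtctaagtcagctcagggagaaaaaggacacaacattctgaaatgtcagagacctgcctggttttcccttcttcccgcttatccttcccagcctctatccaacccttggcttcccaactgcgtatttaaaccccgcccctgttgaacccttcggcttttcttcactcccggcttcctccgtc
COX5B: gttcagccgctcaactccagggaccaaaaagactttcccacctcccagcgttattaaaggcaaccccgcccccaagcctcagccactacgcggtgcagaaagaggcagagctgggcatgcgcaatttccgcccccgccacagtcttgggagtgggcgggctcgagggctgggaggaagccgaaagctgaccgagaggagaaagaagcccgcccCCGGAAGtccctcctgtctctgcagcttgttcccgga

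NRF1 and GABPA are transcription factors known to act at many nuclear genes of respiration. In the window of NDUFB4 there were 2 NRF1 matches, in that of UQCR11 2 NRF1 and 2 ETS matches, in that of COX5B 1 ETS match and in that of NDUFB8 0 of either, which says only that these letters are not in the window. Of the 74 members 65 were matched to promoter windows. The NRF1 motif was in 12 of these 65 genes and the ETS motif in 17, and 3 genes held both. Counted over windows, the NRF1 motif was in 14.8% of the members' windows, 5.07% of all 35116 windows of the same length and 6.56% of those of protein-coding genes. The ETS motif was in 22.2% of the members' windows, 8.52% of all windows and 10.7% of those of protein-coding genes. In the windows shown no match overlaps another.

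Of the 12 members with the NRF1 motif, 3 were higher and 3 lower in LnCaP in untreated arrays, and 4 were higher and 4 lower in nicotine arrays. Of the 17 with the ETS motif, 4 were higher and 3 lower in untreated arrays, and 7 were higher and 1 lower in nicotine arrays. Of all genes 25.4% were higher and 22.4% lower in untreated arrays, and 26.2% and 23.7% in nicotine arrays, and no difference of the motif genes from these shares was tested. A motif match is a description of sequence, and binding was not measured.

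Other genes of the same pathway were read beside the members. For the counts of all lists below, 25.4% of all genes were higher and 22.4% lower in untreated LnCaP arrays. In nicotine arrays these shares were 26.2% and 23.7%. No list was tested against them. Of 11 measured nuclear regulators of respiratory genes, 0 were higher and 3 lower in untreated LnCaP arrays: NRF1 (-0.76), ESRRG (-0.66) and ESRRA (-0.37). With the replicate block 5 were lower, with GABPB1 and MYC in addition. In nicotine arrays 0 were higher and 6 lower. Of 10 genes for mitochondrial DNA maintenance and transcription, 4 were higher and 2 lower in untreated LnCaP arrays, among them TFAM, which packages mitochondrial DNA (0.82), TEFM (0.60), the helicase TWNK (-0.55) and the RNA polymerase POLRMT (-0.51).

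Of 8 measured electron carriers and enzymes that feed electrons into ubiquinone, 6 were higher and 0 lower in untreated LnCaP arrays. SQOR, which oxidises sulfide, was higher by 2.98, the glycerol phosphate dehydrogenase GPD2 by 1.04, ETFDH by 0.81, ETFA by 0.72, ETFB by 0.57 and DHODH by 0.31. In nicotine arrays the same number, 6, was higher and 1 was lower, the gene of cytochrome c, CYCS (-0.32). Of 21 measured assembly factors outside the rule, out of 38 listed, 9 were higher and 6 lower in untreated LnCaP arrays. COX11 (1.07), COA4 (0.86) and ATPAF2 (0.80) had the largest differences up, and COX20 (-1.18), COX15 (-1.10) and UQCC1 (-1.09) the largest down.

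Of 48 mitochondrial ribosome genes 24 were higher and 5 lower in untreated LnCaP arrays, with MRPL40 (1.17) and MRPL58 (1.16) at the top and MRPS10 (-0.64) at the bottom. Of 11 citric acid cycle genes 4 were higher and 5 lower, including SUCLG2 (0.61) and SUCLG1 (-0.64), which encode the GTP-forming beta and the shared alpha subunit of succinyl-CoA ligase, and citrate synthase, CS (-0.47). Of 15 genes of import and cristae 4 were higher, led by TIMM17B (1.99), and 8 lower, led by CHCHD3 and TOMM40 (both -0.62). Of 6 carriers and outer membrane channels 3 were higher, led by VDAC1 (0.88), and 1 was lower. Under nicotine 0 genes of these lists were called in either line, where 0.694% of all genes were in LnCaP and 0% in 22RV1. With the replicate number as a block, 4 were called in LnCaP, where 5.39% of all genes were, all lower in nicotine arrays. These were TWNK (-0.40, limma adjusted p = 0.0178), PPRC1, a coactivator of the PGC-1 family (-0.37, limma adjusted p = 0.0457), MRPS12 and MRPS17.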

How the data were processed

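Gene expression was measured on 12 Affymetrix arrays, 3 in each of 4 groups of LnCaP and 22RV1 cells. The authors deposited log2 values for 22277 probe sets; the normalization is not given in the sources used here. Of these, 19070 probe sets had 1 symbol in the platform annotation, 1043 several and 2164 were unlisted. The highest-mean probe set of each gene gave 11963 genes. ATP5MF, NDUFC2, NDUFS5, NDUFS8, UQCRH and UQCRHL were read only by probe sets of several symbols and were left out. One limma model of group means (limma 3.58.1, R 4.3.3) held all 12 arrays, two-sided, with Benjamini-Hochberg adjustment per contrast over all genes. The fit was checked on simulated data in which arrays were independent and scattered equally. That check does not cover the correlation of same-numbered arrays or the wider scatter of the arrays numbered 3. No depth is defined for arrays, and their number limits the precision.

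Named members were the called ones with the 6 largest values in each direction, the 2 smallest p-values per complex, those just inside and outside the threshold, and fixed core subunits and paralogues; NDUFAF and SDHAF genes counted with their complex. UQCR11's and COX5B's promoters were chosen after their values were seen. The members, lists and tests were chosen with earlier results of these data known. Deviations of same-numbered nicotine and untreated arrays from their group means correlated within a line (r between 0.225 and 0.640 over all genes). The replicate numbers come from the labels. Over the members alone, r lay between 0.00511 and 0.613, both in LnCaP. Given the values over all genes, the numbers were used as pairs in the pair medians and in the replicate block within lines, an alternative. For the line comparisons the block matched numbers across the lines, a matching that these correlations do not cover. The main model held no term for the replicate numbers, so its standard errors and p-values are unpaired. Alternatives covered scaling, probe sets, low values, variance, blocks and arrays left out.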

Additional observations from a re-analysis of the deposited data

How the results depend on the processing

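No member was called for nicotine in 22RV1 or for the difference of effects under any alternative run. With a variance trend, 1 member (CYC1) was called in LnCaP and 1 for the average. The replicate block (6 blocks within lines) called 0 members in the 4 nicotine comparisons. For the line comparisons the block matched replicate numbers across LnCaP and 22RV1. There it called 41 and 46 members in untreated and nicotine arrays, against 35 and 40, and it changed no other call of a member. Between lines, counts in untreated arrays lay between 29 (only the 2 groups compared) and 44 (array weights), and in nicotine arrays between 31 and 47. Median centring moved the member median of the line difference to 0.155 in untreated and 0.138 in nicotine arrays, against 0.093 and 0.078. Leaving out 1 array gave 30 to 39 and 31 to 42 calls between lines, and 0 members for nicotine each time. The member median then ranged from -0.120 to -0.0435 for nicotine in 22RV1, from -0.0625 to -0.0221 in LnCaP (lowest in size without nicotine replicate 2, and -0.0237 without untreated replicate 3), from -0.0802 to -0.0500 for the average and from 0.00261 (without untreated 22RV1 replicate 3) to 0.0691 for the difference. Between lines it ranged from 0.0470 (without untreated 22RV1 replicate 1) to 0.111 in untreated arrays and from 0.0574 to 0.110 in nicotine arrays. Members read by probe sets that can bind related transcripts were left out as an alternative chosen after seeing the data, which gave 33 and 38 calls between lines.

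Signs turned for values that were mostly not called. Other probe sets gave 0.24 for NDUFB8 with nicotine in 22RV1, 0.0577 for SDHD with nicotine in LnCaP, 0.00121 for COX5B averaged over lines and 0.0439 between lines in nicotine arrays, and 0.19 for ATP5MC2 between untreated lines. Leaving out 1 array gave -0.172 to 0.0184 for SDHD in LnCaP, -0.131 to 0.422 for COXFA4L2 between untreated lines, and, between lines in nicotine arrays, -0.0737 to 0.0288 for COX6A2 and -0.0911 to 0.0162 for COX7A2. Median centring gave 0.0430 and 0.0142 for these last genes. COX5B and ATP5MC2 were called at the main probe set, and the cause of the disagreement was not tested. The number of arrays and the median standard error of 0.109 over all genes limit what could be called within a line.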
